A study of Mus musculus with 29 samples.

Results

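The let-7 family is the set of miRNAs that share the seed of let-7a, and its guide strands are the arms that are loaded into Argonaute proteins. The 9 mouse miRNAs described here are mmu-let-7a-5p, mmu-let-7b-5p, mmu-let-7c-5p, mmu-let-7d-5p, mmu-let-7e-5p, mmu-let-7f-5p, mmu-let-7g-5p, mmu-let-7i-5p and mmu-miR-98-5p, written below without the prefix and, for the let-7 guides, mostly without the arm. They were taken by name from the 1183 miRNAs of the deposited count table, and all 9 were found, with a count for each of the 29 libraries. Small RNA had been sequenced from the tibialis anterior, a muscle of the shin, and from serum of C57BL/6 mice, to profile miRNAs in muscle loss with age and with disuse. Young mice were 6 months old, old mice were 24 months old and untreated, and disuse mice were 6 months old and a model of atrophy induced by disuse. The labels do not say how disuse was produced or for how long, nor the sex of the mice. Young, old and disuse muscle had 5 libraries each, young and disuse serum 5 each and old serum 4. The labels number the libraries but do not say that each came from a separate animal or that serum and muscle came from the same mice, so the spread that p-values measure may be partly technical.

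A miRNA pairs with messenger RNAs mainly through its seed, bases 2 to 8 counted from the 5′ end, and lowers their translation and stability. let-7 miRNAs accumulate as cells differentiate, are abundant in adult tissues, and repress growth and cell cycle genes. Their maturation is blocked by the RNA-binding protein LIN28, which binds their precursors. Because the members share a seed, they share many predicted targets, and they differ mainly in the bases after the seed and in where their genes lie.

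The mature sequences are shown because the 9 miRNAs are told apart by few bases. They come from RefSeq on the GRCm38.p6 build, with the seed in capitals.
let-7a-5p: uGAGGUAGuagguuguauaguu
let-7b-5p: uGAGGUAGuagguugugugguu
let-7c-5p: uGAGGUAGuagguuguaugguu
let-7d-5p: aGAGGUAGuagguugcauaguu
let-7e-5p: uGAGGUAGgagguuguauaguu
let-7f-5p: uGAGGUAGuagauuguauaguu
let-7g-5p: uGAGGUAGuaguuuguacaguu
let-7i-5p: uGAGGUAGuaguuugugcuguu
miR-98-5p: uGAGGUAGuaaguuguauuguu
All 9 are 22 nt long and carry the same seed. Counting positions from the 5′ end and writing the base of let-7a first, let-7c differs from let-7a by A19G, let-7e by U9G and let-7f by G12A. let-7b differs by A17G and A19G, let-7d by U1A and U16C, let-7g by G12U and U18C, and miR-98 by G11A and A19U. let-7i differs at 4 positions, G12U, A17G, U18C and A19U. Of the 36 pairs of members, 4 differ by 1 base and 10 by 2. The rule for counting a read that fits several members is not given in the sources used here, so the split of counts among near-identical members is uncertain.

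The 9 mature sequences lie in 12 hairpins of the GRCm38.p6 build, since let-7a, let-7c and let-7f are each made from 2. Positions given here are those of the mature strand, and gaps are those between the ends of hairpins. let-7a-1 (chr13:48538239-48538260), let-7f-1 (chr13:48537889-48537910) and let-7d (chr13:48536078-48536099) lie on the minus strand in exons of the long non-coding RNA 6720427I07Rik. The gaps between them are 262 and 1715 bp. let-7c-2 (chr15:85706616-85706637) and let-7b (chr15:85707325-85707346) lie on the plus strand in exons of the non-coding transcript Lncppara, with a gap of 622 bp. let-7f-2 (chrX:151912353-151912374) and miR-98 (chrX:151913229-151913250) lie in introns of Huwe1, which encodes a ubiquitin ligase, with a gap of 786 bp. The other 5 hairpins hold no second member nearby. They are let-7a-2 (chr9:41536732-41536753, plus strand, introns of 3110039I08Rik and Gm49317), let-7c-1 (chr16:77599672-77599693, plus strand, an intron of Mir99ahg), let-7e (chr17:17830366-17830387, plus strand, an intron of Spaca6), let-7g (chr9:106178846-106178867, plus strand, an intron of Wdr82) and let-7i (chr10:122985698-122985719, minus strand, an exon of the pseudogene D630033A02Rik). Because let-7a, let-7c and let-7f have identical copies at separate loci, their counts cannot be assigned to a locus.

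Depth differed between the sources. Muscle libraries held 254624 to 5943445 counts and serum libraries 45176 to 309133. The medians in muscle were 535754 for young, 2825032 for old and 2298437 for disuse, and in serum they were 133658, 128297 and 174378. A count of 0 allows up to 3 counts of a library, or a limit of 0.505 to 11.8 CPM in muscle libraries and of 9.70 to 66.4 CPM in serum libraries, for counting error only. CPM are counts scaled to the sum of a library. The labelled tissues were checked with 6 muscle miRNAs (miR-1a-3p, miR-133a-3p, miR-133b-3p, miR-206-3p, miR-208b-3p and miR-499-5p), whose summed level was 334700 to 545426 CPM in muscle libraries and 903 to 3619 CPM in serum libraries. The 6 did not add evenly to this sum, since miR-1a-3p averaged 768 CPM over the 15 muscle libraries.

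The family took a larger share of the counts in muscle than in serum. Its 9 members together held 6.10 to 8.62% of the counts of the 15 muscle libraries, with a median of 7.27%, and 0.329 to 2.40% of the counts of the 14 serum libraries, with a median of 0.878%. The share was 7.35% ± 0.876 (SD, n = 5) in young, 7.13% ± 0.540 (n = 5) in old and 6.98% ± 0.760 (n = 5) in disuse muscle. In serum it was 1.22% ± 0.701 (n = 5) in young, 0.806% ± 0.319 (n = 4) in old and 0.834% ± 0.247 (n = 5) in disuse mice. The highest serum share was that of young serum 1 and the lowest that of old serum 2.

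Levels are given below as CPM scaled with TMM factors (trimmed mean of M values) within muscle or within serum. All members have 1 length, so they were ranked within a library without a correction for length. Whether each sequence was captured and counted alike was not tested. The orders below, and terms such as most abundant, therefore refer to counts. In muscle the order by mean was the same in the 3 groups: let-7c, let-7a, let-7b, let-7d, let-7f, let-7i, let-7g, let-7e and miR-98. let-7c, the most abundant, was at 23747, 26105, 20189, 19790 and 29245 CPM in young muscle 1 to 5. It was at 24848, 21141, 18760, 19839 and 28923 CPM in old muscle and at 26534, 25871, 20482, 21792 and 26245 CPM in disuse muscle. The 3 groups cover the same range, and library 5 was the highest of young and of old muscle. let-7a stood at 16685 ± 3212 CPM (SD, n = 5) in young, 15945 ± 3260 in old and 16709 ± 2892 in disuse muscle, and was below let-7c in each of the 15 libraries. let-7b and let-7d were neighbours whose ranges overlapped in every group: let-7b was higher in 5 of 5 young, 4 of 5 old and 3 of 5 disuse libraries.

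At the low end, miR-98 was at 168, 146, 82.3, 89.2 and 238 CPM in young muscle, at 154, 89.0, 109, 93.3 and 129 CPM in old muscle and at 99.4, 134, 108, 91.8 and 174 CPM in disuse muscle. Its 3 groups overlap, and it was below every other member in each muscle library. let-7e, the next lowest, was at 778 ± 181 CPM (SD, n = 5) in young, 674 ± 102 in old and 730 ± 72.6 in disuse muscle. let-7g was at 1406 ± 489, 1432 ± 289 and 1421 ± 264 CPM in the same groups. let-7i lay between let-7f and let-7g, at 4411 ± 1050 CPM in young, 4594 ± 958 in old and 4336 ± 244 in disuse muscle, and its range did not overlap that of let-7g.

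**Figure D1:**
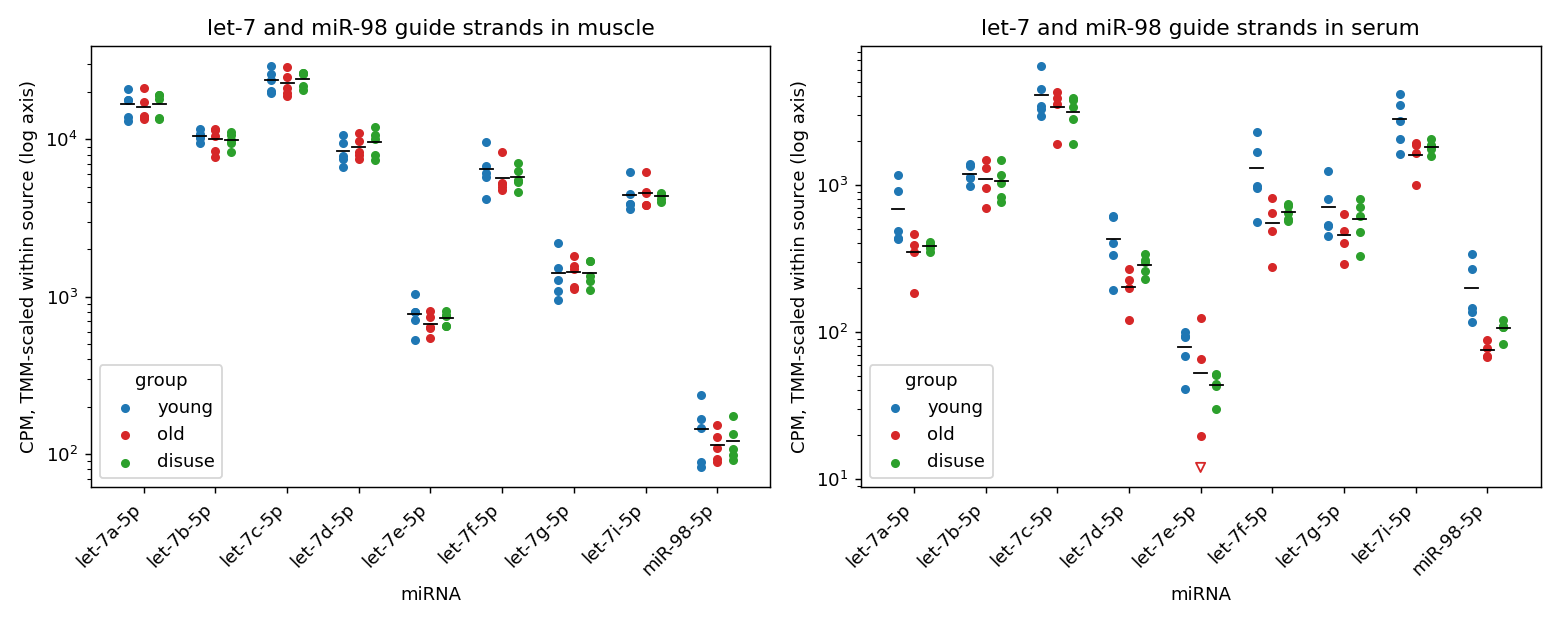
CPM of the 9 members by library (points) with the mean of each group (lines) on log axes, scaled within muscle (15 libraries, first panel) and within serum (14 libraries, second panel). The open triangle marks let-7e in old serum 2, where its count was 0, drawn at a fixed height that is not a measured level. The 3 muscle groups lie on top of each other for every member, while in serum the highest values of every member but let-7b and let-7e are those of young libraries.

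In old against young muscle, 0 of the 9 members passed edgeR's quasi-likelihood test at an adjusted p under 0.05, against 5.87% of the 341 miRNAs tested. No member was under 0.05 before adjustment (0 of 9), against 73 of the 341 tested (edgeR), and DESeq2 also called 0. Their log2 fold changes ran from -0.35 ± 0.26 (SE) for miR-98 to 0.08 ± 0.17 for let-7d, with adjusted p from 0.464 to 0.981 (edgeR). The 95% interval of let-7c, the most abundant member, was -0.38 to 0.24, and that of miR-98, the least abundant, was -0.86 to 0.16. The median was -0.07 over the members and -0.01 over all miRNAs tested. In bulk tissue, a change in the number of cells of a type and a change of RNA per cell cannot be told apart.

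In disuse against young muscle, again 0 of 9 members passed by edgeR or DESeq2, against 0.293% of the 341 tested (edgeR). At an unadjusted p under 0.05 (edgeR) there were 0 of 9 members and 29 of the 341. let-7d had the highest log2 fold change, 0.19 ± 0.17 (SE), and miR-98 the lowest, -0.26 ± 0.26, with adjusted p from 0.810 to 0.996 over the members (edgeR). Between old and disuse muscle 0 of 9 passed by either tool, against 3.52% of those tested (edgeR). Before adjustment (edgeR) 0 of 9 members and 48 of the 341 were under 0.05. The members' log2 differences lay between -0.12 for let-7e and 0.08 for let-7i. The old and disuse groups are set against the same young libraries.

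In serum the order of the members was different. In old and disuse serum it was let-7c, let-7i, let-7b, let-7f, let-7g, let-7a, let-7d, miR-98 and let-7e, and in young serum let-7f stood before let-7b, although it was the higher of the pair in only 2 of 5 libraries. let-7c was above let-7i in 13 of the 14 serum libraries, but their ranges overlapped in every group. let-7i, the second most abundant member of serum, was at 4165, 2047, 2698, 3491 and 1623 CPM in young serum, at 1638, 992, 1921 and 1869 CPM in old serum and at 2052, 1567, 1762, 1871 and 1841 CPM in disuse serum. let-7e was near the limit of detection in serum, with 0 to 19 counts per library. Its count was 0 in old serum 2, which allows up to 11.5 CPM there on the scale of library totals, without TMM factors.

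In old against young serum, let-7f and miR-98 were lower, and the other 7 members did not pass (edgeR). Together these are 2 of 9 members lower, against 7.27% of the 165 miRNAs tested, and 0 higher, against 2.42%. At an unadjusted p under 0.05 (edgeR) the counts were 5 of 9 members and 38 of the 165. With DESeq2 let-7a, let-7d and let-7i passed too (adjusted p = 0.0370, 0.0370 and 0.0434), among 21 called of the 165. miR-98 was at 336, 117, 145, 137 and 268 CPM in young serum and at 67.8, 68.6, 78.0 and 88.0 CPM in old serum, so every old library was below every young one. This held for 6.67% of the miRNAs tested. Its log2 fold change was -1.40 ± 0.36 (SE), a 2.64-fold lower level, with an adjusted p of 0.0189 (edgeR). The values rest on 16 to 61 counts per young library and 4 to 16 per old library.

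let-7f was at 2297, 560, 982, 1665 and 954 CPM in young serum and at 644, 274, 483 and 814 CPM in old serum. The groups overlapped through young serum 2, and all 4 old libraries were below the young median. Its log2 fold change was -1.27 ± 0.37 (SE), a 2.41-fold lower level, with an adjusted p of 0.0365 (edgeR). let-7f and miR-98 share the Huwe1 locus given above, and let-7f is also made from the cluster on chromosome 13.

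These 2 calls depended on single libraries and settings. Without young serum 1, the library with the highest family share, the log2 fold changes were -0.86 for let-7f and -0.98 for miR-98, with adjusted p of 0.114 and 0.0852 (edgeR), and 0 of 9 members passed. Without old serum 1 the adjusted p were 0.0657 for let-7f and 0.0579 for miR-98, and without old serum 2 they were 0.131 and 0.0782. let-7f alone was lost without young serum 4, old serum 3 or disuse serum 3, and miR-98 alone with no filter on low counts (adjusted p = 0.107). Of the 22 alternative fits, let-7f passed in 14 and miR-98 in 15.

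let-7a and let-7d, which share the chromosome 13 cluster with let-7f-1, did not pass in old against young serum, with log2 fold changes of -1.02 ± 0.34 (SE, adjusted p = 0.0587, edgeR) and -1.08 ± 0.34 (adjusted p = 0.0508). let-7a was at 1162, 432, 427, 903 and 485 CPM in young serum and at 350, 185, 390 and 462 CPM in old serum. let-7d was at 600, 192, 333, 615 and 401 CPM in young serum and at 226, 121, 268 and 198 CPM in old serum. In both, young serum 1 and 4 were the highest, and the groups overlapped. For let-7i the log2 fold change was -0.81 ± 0.27 (adjusted p = 0.0649, edgeR) and for let-7g -0.69 ± 0.34 (adjusted p = 0.244).

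let-7b and let-7c, neighbours on chromosome 15, had the values nearest to 0. let-7b was at 1190 ± 170 CPM (SD, n = 5) in young and 1103 ± 347 (n = 4) in old serum, a log2 fold change of -0.12 with a 95% interval of -0.62 to 0.38. let-7c was at 4096 ± 1416 CPM in young and 3390 ± 1035 in old serum, a log2 fold change of -0.28 with an interval of -0.85 to 0.29. let-7e was too low to place, at -0.90 ± 0.66 (SE). The median over the 9 members was -0.90, against -0.09 over all miRNAs tested.

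In disuse against young serum, 0 of the 9 members passed by edgeR or DESeq2, and so did 0% of the 165 miRNAs tested. At an unadjusted p under 0.05 (edgeR) the counts were 4 of 9 members and 20 of the 165. The log2 fold changes were -0.99 ± 0.33 (SE) for let-7f, -0.89 ± 0.31 for miR-98, -0.85 ± 0.30 for let-7a and -0.63 ± 0.25 for let-7i, each with an adjusted p of 0.358 (edgeR). let-7f was at 723, 568, 647, 582 and 738 CPM in disuse serum, all within the lower part of the young range. let-7a was at 347, 373, 410, 388 and 389 CPM, so each disuse library was below each young one, as for 1.21% of the miRNAs tested. let-7b and let-7g were closest to 0, at -0.17 ± 0.24 and -0.28 ± 0.31. The median of the members was -0.63 and that of all miRNAs tested was -0.09. Both comparisons use the same 5 young libraries, so their values are not independent. Directly between old and disuse serum 0 of 9 passed, against 2.42% of those tested (edgeR). Before adjustment (edgeR) 0 of 9 members and 17 of the 165 were under 0.05. The members' log2 differences ran from -0.51 ± 0.36 for miR-98 to 0.10 ± 0.29 for let-7c.

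**Figure D2:**
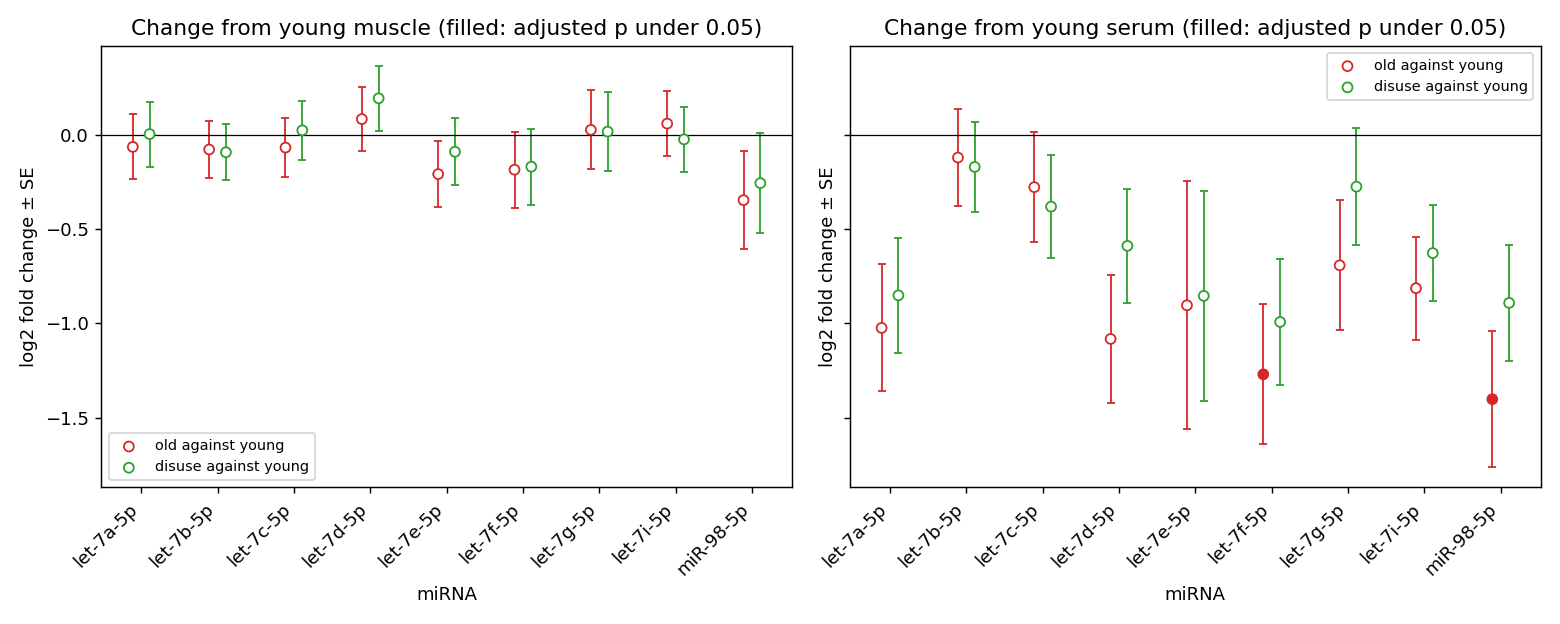
Log2 fold change with its SE (edgeR) of each member in old (red) and disuse (green) against young libraries, in muscle (first panel) and serum (second panel) on 1 scale; filled points passed at an adjusted p under 0.05. In muscle every point lies between -0.35 and 0.19. In serum all 18 points are below 0 and only let-7f and miR-98 in old serum passed.

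Other miRNAs differed between the same serum groups. Of 6 erythrocyte miRNAs, detected in all 3 serum groups, 2 were lower in old than in young serum, against 7.27% of the 165 tested. These were miR-451a (log2 fold change -0.82 ± 0.24, adjusted p = 0.0363, edgeR) and miR-144-5p (-2.16 ± 0.48, adjusted p = 0.0154). The other 4 did not pass, and the median log2 fold change of the 6 was -0.59. miR-451a passed in 12 of the 22 alternative fits, and was lost without young serum 1 or 3 or any of the 4 old libraries. The summed level of the 6 was 187296 to 547701 CPM in young and 147875 to 400809 CPM in old serum. Of 3 liver miRNAs, miR-192-5p was higher in old serum (1.10 ± 0.26, adjusted p = 0.0173, edgeR), and was lost, as was miR-144-5p, without old serum 2 (adjusted p = 0.0782 and 0.0634). The other 2 liver miRNAs did not pass, and the median log2 fold change of the 3 was 0.09. Of all 165 tested, 2.42% were higher. The sum of the 3 was 5696 to 13250 CPM in young and 13570 to 29657 CPM in old serum. The sum of the 6 muscle miRNAs was 903 to 3426 CPM in young and 1593 to 2749 CPM in old serum, with miR-208b-3p at 0 in both and miR-499-5p at 0 in old serum. Of the markers tested in the other lists, 0 of 5 leukocyte, 0 of 2 endothelial, 0 of 3 fibroblast and smooth muscle and 0 of 1 muscle miRNAs passed (edgeR). The part of these miRNAs' sources in the values of let-7f and miR-98 was not tested.

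An interaction term over the 29 libraries tested whether serum and muscle differed in their change with age. It passed for 0 of 9 members by edgeR or DESeq2, against 0.83% of the 241 miRNAs tested, and 4 of 9 members (let-7a, let-7d, let-7f and let-7i) and 34 of the 241 were under 0.05 before adjustment. The values, as the log2 change in serum minus that in muscle, were -1.01 ± 0.38 (SE) for let-7d, -0.97 ± 0.42 for let-7f, -0.83 ± 0.37 for let-7a and -0.73 ± 0.34 for let-7i, with adjusted p of 0.190, 0.295, 0.307 and 0.324 (edgeR). For miR-98, which was not under 0.05 before adjustment, the value was -0.91 ± 0.45 (adjusted p = 0.327). For let-7b and let-7c they were 0.08 ± 0.30 and -0.08 ± 0.34. The interaction with disuse passed for 0 of 9 members and 0% of those tested, and 0 of 9 members and 24 of the 241 were under 0.05 before adjustment. The changes of let-7f and miR-98 in old serum are therefore not shown to differ from those in old muscle.

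Serum was next compared with muscle within each condition. All serum libraries differed from all muscle libraries in extraction and RNA input, so these differences and the source cannot be told apart. In young mice 8 of 9 members were lower in serum, against 43.7% of the 190 miRNAs tested. let-7a was 36.7-fold lower (log2 -5.20 ± 0.40 SE, adjusted p = 2.77e-10, edgeR) and let-7d 29.9-fold lower. let-7e was 15.2-fold, let-7b 13.1-fold, let-7c 8.68-fold and let-7f 7.73-fold lower, while let-7g was 3.00-fold and let-7i 2.39-fold lower. miR-98 did not pass, at -0.18 ± 0.42 (adjusted p = 0.720), with a 95% interval of -0.99 to 0.64. Over the 17 alternative fits its value ran from -0.49 to 0.54, so its direction is open.

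The spread among the members was similar in the other conditions. In old mice 9 of 9 were lower in serum, against 44.6% of the 316 tested, from 64.2-fold for let-7a (adjusted p = 2.67e-13, edgeR) and 59.3-fold for let-7d to 3.92-fold for let-7i and 2.09-fold for miR-98 (adjusted p = 0.00828). In disuse mice 9 of 9 were lower, against 48.4% of the 192 tested, from 58.5-fold for let-7a and 44.7-fold for let-7d to 3.15-fold for let-7i and 1.55-fold for miR-98 (adjusted p = 0.0277). Scaling by library totals alone moved the median of all miRNAs tested in young mice from -0.34 to 0.17, and with it let-7g (-0.85, adjusted p = 0.0576) and let-7i (-0.59, adjusted p = 0.119) in young mice and miR-98 in old (-0.67) and disuse mice (-0.09) did not pass. In disuse mice miR-98 also did not pass with DESeq2 (-0.41, adjusted p = 0.112) or without any of disuse muscle 3 and 5 and disuse serum 1, 2 and 3 (adjusted p from 0.0586 to 0.102, edgeR). let-7a, let-7b, let-7c, let-7d, let-7e and let-7f passed in all 3 conditions under every alternative fit.

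**Figure D3:**
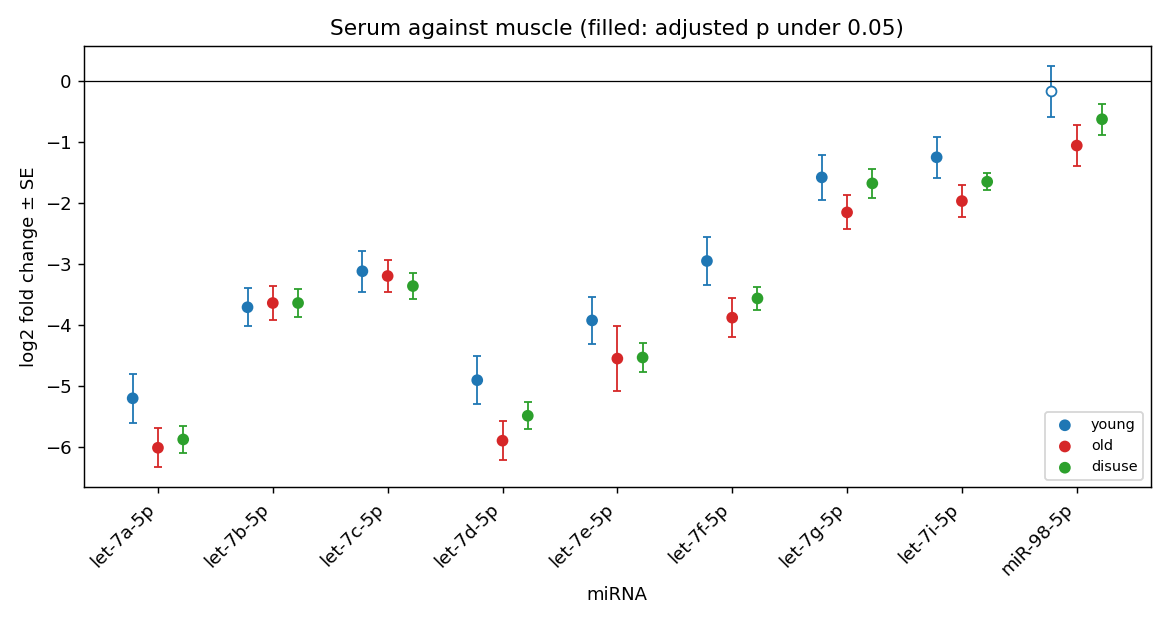
Log2 fold change of serum against muscle with its SE (edgeR) for each member in young (blue), old (red) and disuse (green) mice; filled points passed at an adjusted p under 0.05. let-7a and let-7d lie lowest, between -6.01 and -4.90, let-7g and let-7i between -2.16 and -1.25, and miR-98 highest.

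Because the scaling of serum against muscle is uncertain, the make-up of the family was also taken within each library, as each member's share of the counts of the 9. let-7a made up 22.8% ± 1.22 (SD, n = 15) of the family in muscle and 5.06% ± 1.19 (n = 14) in serum, and let-7d 12.5% ± 1.15 and 3.41% ± 1.12. let-7i made up 6.23% ± 0.921 in muscle and 22.8% ± 3.24 in serum, let-7g 1.96% ± 0.276 and 6.39% ± 1.19, and miR-98 0.174% ± 0.0388 and 1.41% ± 0.583. The ranges over libraries did not overlap for these 5 members. The shares of a library are parts of 1 whole, so a lower share of 1 member raises those of others. By level, 0 of the 9 members passed as higher in serum in each of the 3 conditions (edgeR). let-7c had the largest share in both sources, 32.8% ± 1.16 in muscle and 38.9% ± 5.16 in serum. let-7b at 14.3% ± 2.03 and 12.6% ± 2.39, let-7f at 8.29% ± 1.28 and 8.78% ± 2.64, and let-7e at 1.01% in muscle and 0.631% in serum overlapped too.

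**Figure D4:**
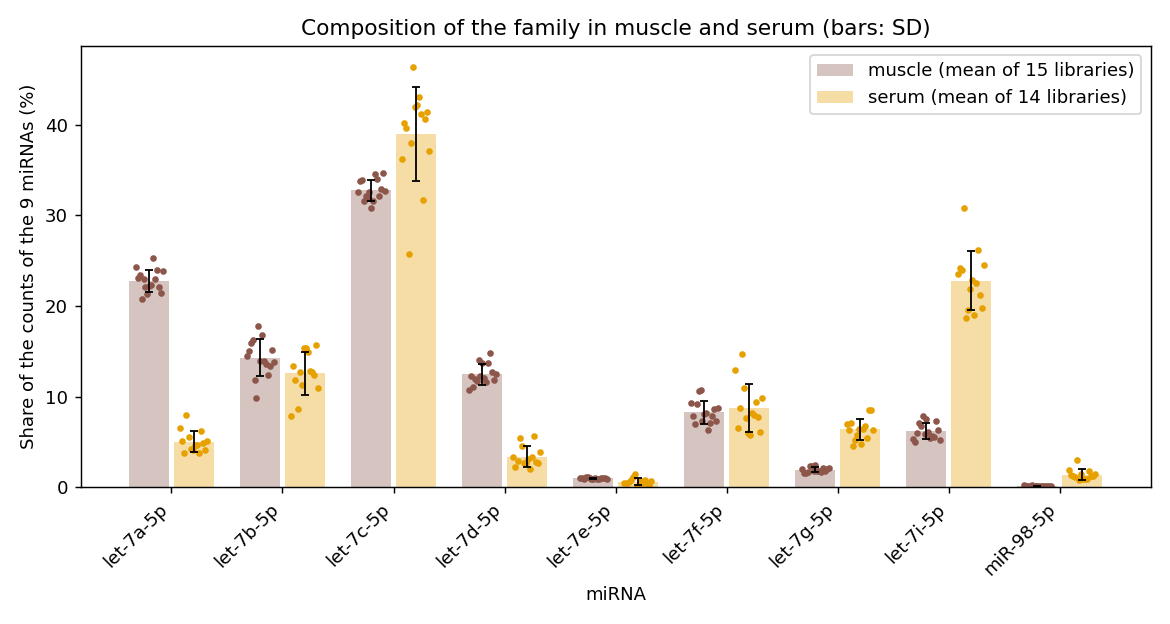
Share of each member in the counts of the 9 (percent), by library (points), with the mean (bars, from 0) and SD (error bars) over the 15 muscle and 14 serum libraries. let-7a and let-7d have lower shares in serum, let-7g, let-7i and miR-98 higher ones, and let-7b, let-7c, let-7e and let-7f overlap.

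Ratios of counts between pairs of members within a library show the same contrast between the sources. There were 0.216 to 0.359 counts of let-7i per count of let-7a in muscle libraries and 3.34 to 6.32 in serum libraries. For let-7f, 1 base away from let-7a and in part from the same cluster, the ratio to let-7a was 0.250 to 0.487 in muscle and 1.24 to 2.30 in serum. For let-7d, from the same cluster, it was 0.443 to 0.637 in muscle and 0.429 to 0.909 in serum, ranges that overlap. The ratio of miR-98 to let-7f was 0.0155 to 0.0248 in muscle and 0.0821 to 0.281 in serum, and that of let-7c to let-7b was 1.83 to 3.23 and 2.49 to 4.60. Read against the sequences above, let-7a, let-7b, let-7c, let-7d and let-7e have GG at bases 11 and 12, and in young mice they had the 5 lowest values of serum against muscle. In old mice let-7f, which has GA there, was lower (-3.88) than let-7b (-3.64) and let-7c (-3.20), and in disuse mice it was lower (-3.56) than let-7c (-3.36), so that order held in 1 of the 3 conditions. This feature was chosen after the values were seen and is given as a description.

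Within a source the make-up of the family was compared between conditions. Exact two-sided permutation tests of the 27 shares and contrasts of each source called 0 after Benjamini-Hochberg adjustment, with 1 in muscle and 2 in serum under 0.05 before it. With so few libraries no single share could pass that adjustment, so the absence of calls does not show that the shares were alike. In serum the smallest p was 0.0159 (adjusted p = 0.214), the smallest that 4 against 5 libraries allow. It was reached by let-7c in 2 contrasts. The share of let-7c was 43.4% ± 2.04 (SD, n = 4) in old, 36.0% ± 5.91 (n = 5) in young and 38.4% ± 4.15 (n = 5) in disuse serum. Every old library, from 42.0 to 46.4%, was above every young one, up to 40.2%, and every disuse one, up to 41.4%. The share of let-7f was 6.94% ± 1.23 in old and 10.8% ± 3.23 in young serum, and that of miR-98 1.04% ± 0.323 and 1.77% ± 0.781, each with an exact permutation p of 0.0635 (adjusted p = 0.343). In muscle the smallest p was 0.0238 (adjusted p = 0.643), for let-7d, at 13.1% ± 1.18 of the family in disuse and 11.6% ± 0.622 in young muscle.

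Other miRNAs of the same loci were read from a list. Between mature strands, miR-99a-5p lies 711 bp from let-7c-1, and miR-99b-5p and miR-125a-5p lie 151 and 430 bp from let-7e. miR-100-5p lies 5274 bp from let-7a-2, and miR-125b-5p 45187 bp from let-7a-2 and 46586 bp from let-7c-1. Of these 5 neighbours, 0 passed in old against young muscle and 0 in old against young serum (edgeR), against 20 of 341 and 16 of 165 of all miRNAs tested. Before adjustment 0 and 1 of the 5 were under 0.05, against 73 of 341 and 38 of 165. In the serum comparison miR-99a-5p was at -0.98 ± 0.31 (SE, adjusted p = 0.0508, edgeR), and the others lay between -0.47 and -0.23. In young serum against young muscle miR-99a-5p was higher in serum, by 1.32 ± 0.35 on the log2 scale (adjusted p = 0.00187), while let-7c was lower. miR-100-5p was lower, at -0.74 ± 0.31 (adjusted p = 0.0386, edgeR), but not with library totals or without young muscle 5, young serum 1 or young serum 4, and the other 3 did not pass. In disuse mice miR-99a-5p was again higher in serum (0.86 ± 0.21, adjusted p = 0.00114, edgeR), but in old mice it did not pass (0.15 ± 0.27, adjusted p = 0.603). In both, miR-99b-5p, miR-100-5p and miR-125a-5p were lower in serum and miR-125b-5p did not pass.

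The passenger strands, the 3p arms of the same hairpins, were mostly too low to test: 6 of 12 were tested in muscle and 1 of 12 in serum. let-7d-3p, named here after its values were seen, passed in old against young muscle with a log2 fold change of -0.58 ± 0.17 (SE, adjusted p = 0.0387, edgeR), and against disuse muscle with -0.72 ± 0.17 (adjusted p = 0.0111). It was at 2428 ± 469 CPM (SD, n = 5) in young, 1626 ± 277 in old and 2675 ± 339 in disuse muscle. let-7d-5p, the guide from the same hairpin, was at 0.08 in old against young muscle, and the difference between the arms was not tested. The call of let-7d-3p in old against young muscle remained in 6 of 23 alternative fits, with adjusted p from 0.00755 to 0.201, and was lost when any of 12 of the 15 libraries was left out. Against disuse muscle it passed in 18 of 23, and leaving out old muscle 2, old muscle 4, disuse muscle 3 or disuse muscle 4 lost the call.

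Of the 1183 miRNAs, 1008 matched a mature sequence in RefSeq by name, and 10 of these carry the let-7 seed. The tenth is let-7k, which had 1378 counts in all muscle libraries and 6 in all serum libraries. let-7j carries bases 2 to 7 of the seed and is shown because it differs from let-7i by 1 base over their shared length.
let-7j: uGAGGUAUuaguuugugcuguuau
let-7k: uGAGGUAGgagguugugug
let-7j had 0.180 to 0.386 counts per count of let-7i in muscle and 0.0797 to 0.361 in serum. Its log2 fold change was 0.03 ± 0.20 (SE) in old against young muscle and -0.29 ± 0.31 in old against young serum, and neither passed. In young serum against young muscle it was lower, at -1.98 ± 0.35 (adjusted p = 2.85e-05, edgeR), beside -1.25 for let-7i.

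The miRNAs whose level was most like the summed level of the family were ranked by Pearson's r of log2 CPM, as a description across libraries that share a scaling. Over the 15 muscle libraries and 324 candidates these were miR-151-5p (r = 0.804), miR-542-5p (0.780), miR-27b-3p (0.680), miR-1a-3p (0.667) and miR-125a-3p (0.639). Over the 14 serum libraries and 154 candidates they were miR-181c-5p (0.914), miR-181a-5p (0.851), miR-181b-5p (0.832), miR-26a-5p (0.748) and miR-127-3p (0.738). The 3 closest in serum belong to 1 family, miR-181, and none of the 5 recurs in the muscle list.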

How the data were processed

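The authors deposited 1 table of raw counts with a whole number for each mature miRNA in each library. Per the submitters' processing notes, Bowtie was used with mm10. Not given in the sources used here are the aligner's version, the annotation and the handling of reads that fit several members. Per the labels' protocols, Trizol was used for muscle and a column kit for serum, with unequal RNA inputs.

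Of 1183 miRNAs, 695 have 29 values and were used. The other 488 have 28 values, the leading 13 being 0, and hold no let-7 or miR-98 name. As these end before the final deposited column, that column's unit was entered as other, though it holds counts for the 695.

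Counts were tested with edgeR 4.0.16 in R 4.3.3 (quasi-likelihood test, TMM factors, filterByExpr by group, Benjamini-Hochberg adjustment over all miRNAs tested, threshold 0.05). Each source was fitted over its 3 groups, serum against muscle within a condition, and interactions over 29 libraries. The SE is the size of the log2 fold change over the square root of F. The 95% intervals use this SE with a normal quantile, so they are approximate and narrower than the F test implies. The code was tested on simulated data. The members, lists and rules were chosen with earlier results of these data known. All 9 members are named in every comparison; other miRNAs named are cluster neighbours, passenger strands, markers, rows with the let-7 seed and the 5 closest patterns per source. Alternatives were other scalings, DESeq2 1.42.0, no low-count filter, a replicate block, the incomplete rows read from the right, other sample sets and each library left out.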

Additional observations from a re-analysis of the deposited data

Results flagged for a closer look

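In the 60 groups of values examined (each member and the family sum in each of the 6 groups), 1 library stood apart from the rest of its group. let-7f-5p was at 8366 CPM in old muscle 1, against 4751 to 5276 CPM in the other 4 old muscle libraries. About 1 group in 20 would stand apart in this way by chance.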

How the results depend on the processing

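In muscle, 0 of 9 members passed in each of the 3 comparisons under every alternative, and the same held for both interactions and for disuse serum against young and old serum. In old against young serum 2 members were lower; the number was 0 with library totals only, 0 with only the 2 groups compared, 1 with no filter on low counts, 5 with DESeq2, 3 with upper-quartile factors and 0 to 5 when each library was left out in turn. It was 0 without young serum 1, without old serum 1 and without old serum 2, 1 without young serum 4, old serum 3 or disuse serum 3, 5 without young serum 2 and 4 without young serum 5. The added members were let-7a, let-7d and let-7i. The cause was not tested. Upper-quartile factors moved the median of all miRNAs in old against young muscle from -0.01 to -0.21 and that of the members from -0.07 to -0.27. Replicate numbers recur between groups, and no label says what they share. Correlations of the deviations of same-numbered libraries ran from -0.298 to 0.134 over muscle libraries and from -0.239 to 0.412 over serum libraries; in serum 5 of 13 such pairs and 9 of 52 other pairs were over 0.1. Not every pair deviated together, so pairing was not established. With the replicate block 2 members were lower in old against young serum, let-7f and let-7i, with miR-98 at an adjusted p of 0.0584 (edgeR), and miR-98 in disuse serum against muscle was at 0.0503. Of 2311 values of members under alternatives 166 changed sign, 0 of them called. The largest of these was 0.28 in size in the main fit, and the largest under an alternative was 0.54. Serum depth limits let-7e, with 0 to 19 counts a library, and miR-98, with as few as 4.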
